A study of Prunus persica with 20 samples.

Results

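The genes described here set the accessions MN and TN7 apart from Sunraycer and TN11 in young peach (Prunus persica) fruit. They were chosen from mean CPM (the counts of a gene per 1000000 counts of its library) in each accession. A gene was a member when the smaller mean of one pair was at least 1 CPM and at least 2.5 times the larger mean of the other pair. Of 26811 genes in the table, 201 met this rule: 18 were higher in MN and TN7 and 183 were lower in them. MN is the Maravilha nectarine mutant, which arose from a peach, with smooth fruit and the stated genotype Gg, and TN7 is a peach with the same stated genotype. Sunraycer is a nectarine stated gg, and TN11 is a peach stated GG. RNA was taken from fruit at the fruit set stage, and 5 libraries of MN, 4 of TN7, 5 of Sunraycer and 5 of TN11 were analysed. No other allele, treatment or age is given for any group. Each accession is the one example of its genotype and surface, so what separates the pairs and what merely separates these 4 accessions cannot be told apart. Nothing says whether the replicates came from separate trees or fruits, so p-values refer to the variation among these libraries, part of which may be technical.

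The G locus decides whether a peach fruit carries hairs. The allele G is dominant, so GG and Gg trees normally bear fuzzy fruit and gg trees bear nectarines. MN breaks that rule, since it is smooth although stated Gg. The study's question was how hair formation is regulated, in MN above all. The pairing of MN with TN7 follows the stated heterozygous genotype and crosses the fruit surface, because each pair holds 1 nectarine and 1 peach. The gene at the G locus itself, taken from published work to be Prupe.5G196100.v2.1, was no member. It had 45.4 ± 9.39 CPM in TN11 (SD, n = 5), 14.6 to 20.1 in TN7 (mean 17.6, n = 4), 3.41 ± 0.958 in MN (SD, n = 5). Sunraycer had 2.29 ± 1.61 CPM (SD, n = 5), so both peaches lay above both nectarines. The files give gene identifiers without names or functions, and 0 of them matched the RefSeq gene table, so the members are described by identifier, level and position, and the tissue label could not be checked against markers.

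Library totals ran from 14890206 to 24474843 counts. Libraries of each accession also spread along a common axis, the leading component of the deviations from the accession means over 19159 tested genes that are not members, which held 40% of that variance. On this axis MN libraries scored −1.60 to −0.285, TN7 libraries −0.737 to 0.833, TN11 libraries −0.547 to 0.469 and Sunraycer libraries 0.314 to 2.64. TN7 5 (replicate 5 of TN7, named in this way throughout) lay farthest from its accession among the TN7 libraries and Sunraycer 1 farthest among the Sunraycer libraries. Values below include these libraries unless stated.

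Most members were silent or weak in MN and TN7 and moderately expressed in the other accessions. The 183 lower members had median levels of 0.884 CPM in MN and 1.16 in TN7, against 13.2 in Sunraycer and 5.90 in TN11. Their ratio, the smaller mean of the higher pair over the larger mean of the lower pair, had a median of 3.63 and reached 10 in 13 genes. The 18 higher members were weakly expressed too, with medians of 3.87 CPM in MN and 3.47 in TN7, but their ratio was at least 10 in 7 genes and had a median of 8.69 (accessions with under 3 counts set to 3). In 14 of the 18 higher members every MN and TN7 library lay above every Sunraycer and TN11 library, as in 1.08% of all genes with at least 1 CPM in both MN and TN7. The same separation held for 61 of the 183 lower members, against 0.643% of genes with at least 1 CPM in both Sunraycer and TN11. These shares follow from the rule and are a description. In whole-fruit RNA, fewer cells that express a gene and less RNA per cell cannot be told apart.

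**Figure D1:**
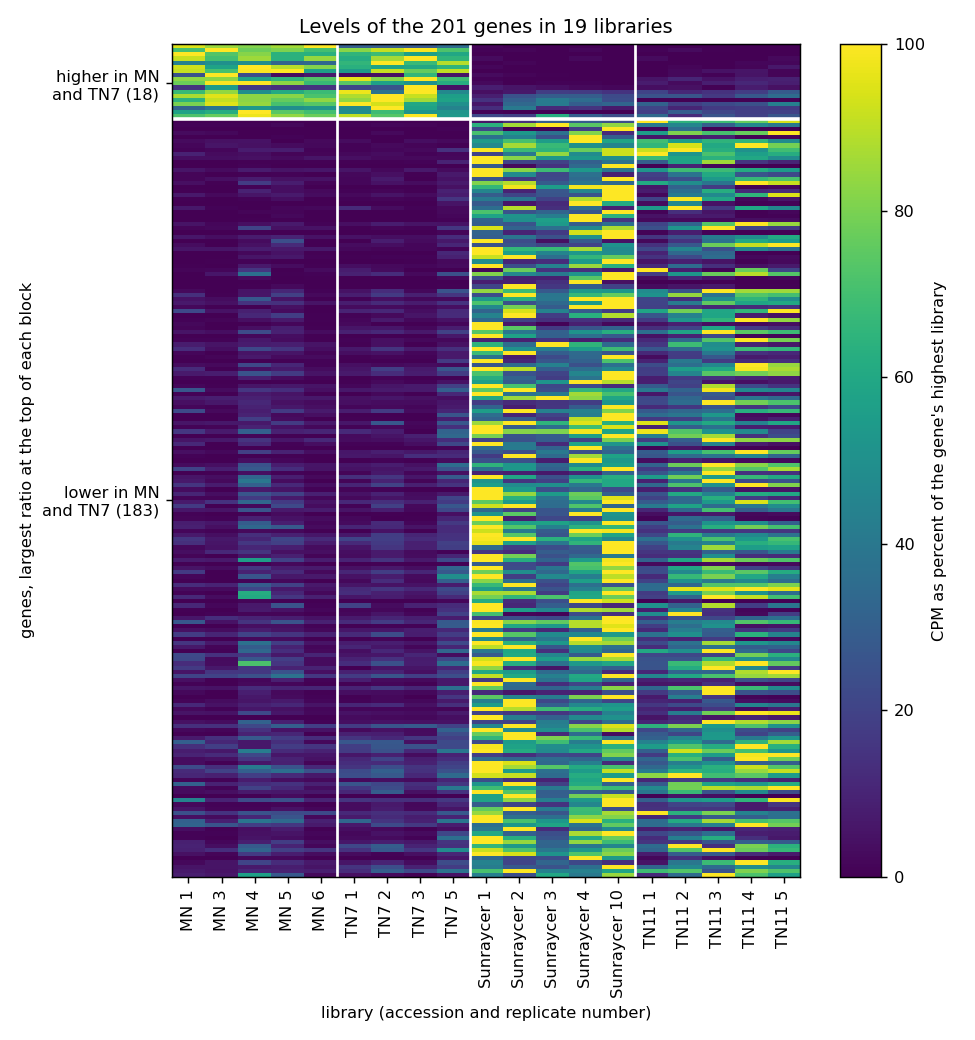
CPM of the 201 members (rows) in 19 libraries (columns, grouped by accession), as percent of each gene's highest library. The 18 higher members form a narrow, mostly even block in MN and TN7, while the 183 lower members vary between libraries of Sunraycer and of TN11 and show faint signal in MN 4, MN 5 and TN7 5.

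The 2.5-fold limit cut through a continuum. Just inside it among the higher members, Prupe.3G219900.v2.1 had a ratio of 2.503 and Prupe.8G027100.v2.1 of 2.57. Just outside were Prupe.2G023800.v2.1 and Prupe.2G001500.v2.1, both with 2.48. Among the lower members Prupe.3G303600.v2.1 and Prupe.4G267600.v2.1 were just inside with 2.51 each, and Prupe.8G148600.v2.1 (2.49) and Prupe.8G215100.v2.1 (2.48) just outside. Of all members, 110 met the rule whichever library was left out, 12 of the higher and 98 of the lower.

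The higher members began with genes that were present in MN and TN7 and close to absent elsewhere. Prupe.4G234300.v2.1 had no count in any library of Sunraycer or TN11. It had 4.09, 2.99, 3.36, 2.61 and 2.59 CPM in MN 1, 3, 4, 5 and 6, and 2.68, 2.81, 2.33 and 2.46 CPM in TN7 1, 2, 3 and 5. The MN and TN7 libraries overlapped, and the gene was at least 80.9-fold higher in them than 3 counts over either other accession would give. Prupe.3G293500.v2.1 behaved alike, with 4.32 to 6.15 CPM in MN, 4.44 to 6.09 in TN7 and at most 0.173 CPM in a library of the other accessions. Prupe.6G091500.v2.1 and Prupe.1G204000.v2.1 were weaker, with means of 1.49 and 1.13 CPM in MN and 1.47 and 2.18 in TN7. The former had 2 counts over Sunraycer and 2 over TN11, a ratio of 70.5 (95% counting interval 19.3 to 575). The latter had 1 count over Sunraycer and 2 over TN11, a ratio of 62.1 (16.8 to 501). These Poisson intervals cover counting error alone.

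Prupe.2G023900.v2.1 had the highest ratio of the genes counted in all accessions, 93.4, and also differed inside the pair. Its levels were 15.9, 14.2, 13.7, 14.5 and 16.8 CPM in MN 1, 3, 4, 5 and 6, and 5.05, 4.98, 4.70 and 5.94 CPM in TN7 1, 2, 3 and 5. Over all libraries it had 5 counts in Sunraycer and 1 in TN11. No MN library came down to the TN7 range. The MN level was higher by a log2 difference of 1.53 (SE 0.336; quasi-likelihood test of edgeR with Benjamini-Hochberg adjustment, adjusted p = 0.00333). With replicate number as a block the adjusted p was 0.0635, which ends the call.

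Other higher members kept a measurable level in at least 1 accession of the lower pair. Prupe.3G050500.v2.1 had 70.1, 70.1, 49.1, 54.8 and 61.4 CPM in MN 1, 3, 4, 5 and 6 and 81.3, 68.7, 84.4 and 57.8 CPM in TN7 1, 2, 3 and 5. In TN11 it ran from 4.22 to 8.70 CPM, and in Sunraycer from 0 to 0.922 CPM, the highest being Sunraycer 1. Every TN11 library lay above every Sunraycer library, and the log2 difference of Sunraycer minus TN11 was −4.74 (SE 0.556; edgeR, adjusted p = 4.32e-06). Prupe.2G107700.v2.1 was the most abundant higher member, with 261 ± 32.7 CPM in MN (SD, n = 5) and 269 ± 57.9 in TN7 (SD, n = 4). Sunraycer held an intermediate level, from 48.5 to 136 CPM, while TN11 had 2 counts over its 5 libraries. That gene therefore meets the rule through a 2.73-fold step above Sunraycer, and Sunraycer exceeded TN11 by a ratio of 5106 (counting interval 1414 to 42160). Prupe.4G020500.v2.1, weaker than these, was measurable in all 4 accessions, with 6.05 to 8.05 CPM in MN, 4.71 to 8.42 in TN7, 0.705 to 2.48 in Sunraycer and 1.41 to 2.98 in TN11. Libraries showed overlap inside each pair and none between the pairs.

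Not every higher member was even within its accession. Prupe.3G013600.v2.1 had a ratio of 9.82, but its MN levels ran from 0.414 to 13.3 CPM, highest in MN 3, and its TN7 levels from 0.402 to 8.76 CPM, highest in TN7 3. The next highest library had 3.32 CPM in MN and 0.749 in TN7. The lowest library of each lay below the highest Sunraycer or TN11 library, at 0.697 CPM.

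Among the lower members a small group was close to silent in MN and TN7. Prupe.7G044600.v2.1 was detected once in MN, with 1 count in MN 5, and had none in TN7. It had 15.03, 9.74, 10.3, 11.5 and 14.1 CPM in TN11 1 to 5, and 0.868, 2.00, 4.37, 4.38 and 3.63 CPM in Sunraycer 1, 2, 3, 4 and 10. The ratio was 368 (counting interval 57.5 to 12658), and the log2 difference of Sunraycer minus TN11 was −1.88 (SE 0.335; edgeR, adjusted p = 0.000551). Prupe.2G022600.v2.1 was expressed at 18.8, 25.4, 29.5, 22.0 and 24.5 CPM in Sunraycer 1, 2, 3, 4 and 10 and at 12.1, 13.5, 8.92, 13.8 and 11.9 CPM in TN11 1 to 5. No MN or TN7 library exceeded 0.580 CPM. Here the order inside the pair was the opposite, with Sunraycer above TN11 by 1.12 (log2, SE 0.252, edgeR adjusted p = 0.00212).

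In other members of this silent group Sunraycer and TN11 differed by less than 2-fold. Prupe.4G011500.v2.1 ran from 2.17 to 3.98 CPM in Sunraycer and from 1.94 to 2.75 in TN11, and no MN or TN7 library exceeded 0.189 CPM. Prupe.3G307800.v2.1 had 4.56 ± 0.857 and 4.25 ± 1.16 CPM in Sunraycer and TN11 and at most 0.802 CPM, in TN7 5, in a library of the lower pair. Prupe.4G284000.v2.1 ran from 11.3 to 21.7 CPM in Sunraycer and 15.2 to 25.05 in TN11, from 0.475 to 1.45 in MN and 0.107 to 0.640 in TN7. Prupe.3G021400.v2.1 had 2 counts over MN and 1 over TN7, with means of 1.01 CPM in Sunraycer and 1.53 in TN11 (ratio 48.4, counting interval 14.7 to 439). The ranges of Sunraycer and TN11 overlapped in all 4 of these genes. Prupe.4G261900.v2.1 also ranked among the largest ratios (32.2), but on few libraries: Sunraycer 1, 4 and 10 had 12.5, 10.8 and 56.5 CPM and TN11 2 had 20.1, while all other Sunraycer and TN11 libraries stayed below 1 CPM. It had no count in MN, and TN7 5 alone of the TN7 libraries had any (0.535 CPM), so the pairs overlapped.

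Several of the most abundant lower members spread widely between the libraries of MN and of TN11. For Prupe.3G144100.v2.1 the coefficient of variation was 169.0% in MN, 159.6% in TN7 and 113.3% in TN11, but 25.4% in Sunraycer. For Prupe.3G144100.v2.1 the Sunraycer mean was 1749 ± 444 CPM (SD, n = 5), while TN11 1 to 5 gave 125, 649, 365, 14.0 and 34.2 CPM. In MN 1, 3, 4, 5 and 6 it had 2.49, 0.226, 16.4, 78.0 and 1.30 CPM, and in TN7 1, 2, 3 and 5 it had 5.45, 7.24, 4.21 and 94.6 CPM. MN 5 and TN7 5 therefore exceeded TN11 4 and TN11 5, MN 4 exceeded TN11 4, and the pairs overlapped. Prupe.6G141100.v2.1 showed the same libraries high and low: MN 4 and MN 5 (95.1 and 108 CPM) and TN7 5 (151 CPM) lay above TN11 4 and TN11 5 (35.0 and 47.5 CPM). Its mean levels were 1225 CPM in Sunraycer, 255 in TN11, 44.7 in MN and 48.0 in TN7. Prupe.1G205600.v2.1 had 571 to 2321 CPM in Sunraycer, 14.0 to 200.1 CPM in TN11, 0 to 22.0 CPM in MN and no count in TN7. MN was at least 160-fold above TN7 for this gene (edgeR adjusted p = 0.0169, and 0.0968 with the replicate block), with 619 counts over MN of which MN 5 held the most. Without MN 5 the fitted log2 difference fell from 9.71 to 7.42 (edgeR adjusted p = 0.0399), and limma-voom gave 5.28 (adjusted p = 0.253), which ends the call. MN 5 also exceeded TN11 4, so the pairs overlapped at these libraries.

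Prupe.2G247600.v2.1 was the most abundant lower member in MN and TN7, and the plainest case of a shallow difference. It ran from 46.0 CPM in MN 1 to 170.4 in MN 4, from 74.1 in TN7 1 to 250.1 in TN7 5, from 206 to 476 in Sunraycer and from 168 to 519.99 in TN11. The ratio was 2.53, and MN 4 and TN7 5 lay above TN11 1.

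**Figure D2:**
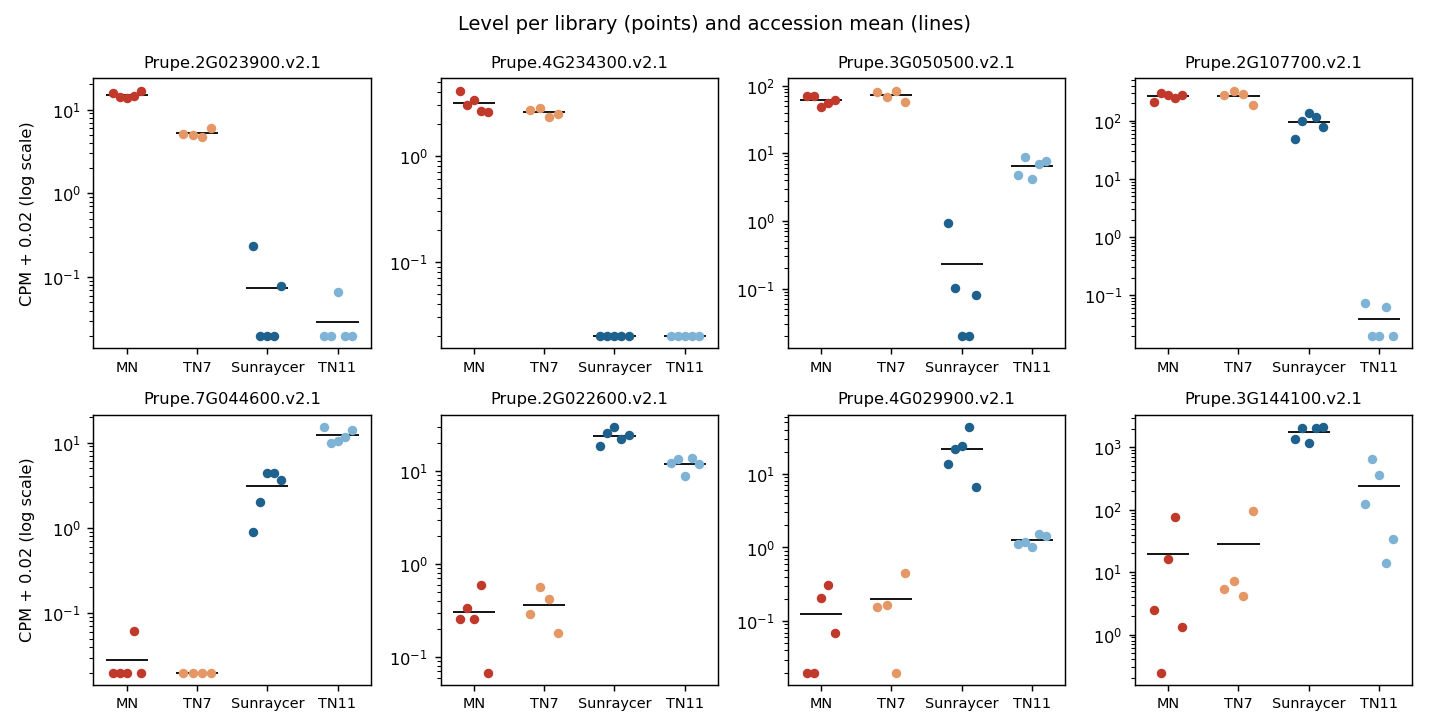
CPM per library (points, with 0.02 added, log axis) and accession means (lines) for 4 members higher (top) and 4 lower (bottom) in MN and TN7. Prupe.4G234300.v2.1 has no count in Sunraycer or TN11, Prupe.2G107700.v2.1 is intermediate in Sunraycer, and Prupe.3G144100.v2.1 overlaps between TN11 4, TN11 5, MN 5 and TN7 5.

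The rule set a difference between the pairs and put no limit on differences inside a pair. In the edgeR fit over all 19 libraries and 19360 tested genes, all 201 members were tested. A gene was called when its adjusted p was below 0.05 and its difference at least 2-fold. Between MN and TN7, 16 members were called, 5 higher and 11 lower in MN, which is 7.96% of members where 10.3% of all tested genes were called (2.73% higher and 7.59% lower). With replicate number as a block the count was 9, and without TN7 5 it was also 9. The share over all tested genes was not computed for either of these fits. Between Sunraycer and TN11, 56 members were called, 48 higher and 8 lower in Sunraycer, or 27.9% against 18.3% of all tested genes. No p is given for these shares, because the rule used the means of all 4 accessions. The median log2 difference of members was −0.156 for MN minus TN7 and 0.529 for Sunraycer minus TN11, beside −0.0154 and −0.05 over all tested genes. Inside neither pair were 135 members called, and 6 were called inside both. The shares of all tested genes called inside neither or both were not computed, so nothing is read from these counts.

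The excess toward Sunraycer lay in the lower members: 47 of the 183 were called higher and 4 lower in Sunraycer than in TN11, where 9.85% and 8.49% of all tested genes were. For Prupe.3G144000.v2.1, Sunraycer ran from 339 to 1124 CPM and TN11 from 1.00 to 59.1 CPM (log2 difference 5.28, SE 1.35; edgeR, adjusted p = 0.00521). Prupe.4G029900.v2.1 had 13.5, 21.5, 24.1, 42.8 and 6.67 CPM in Sunraycer 1, 2, 3, 4 and 10 against 0.986 to 1.52 CPM in TN11 (log2 4.23, SE 0.530, edgeR adjusted p = 9.10e-06). No MN or TN7 library of that gene exceeded 0.428 CPM, so 3 levels were visible. In 129 lower members all Sunraycer libraries lay above all MN and TN7 libraries, as in 4.62% of genes with at least 1 CPM in Sunraycer and TN11. The same held for all TN11 libraries in 76 lower members, against 2.96% of those genes. Both shares follow in part from the rule.

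The calls between MN and TN7 named a few members in which 1 accession of the low pair was lower still. Outside the naming rule, and chosen after the values were seen, Prupe.2G076700.v2.1 was without a count in MN, ran from 1.44 to 2.30 CPM in TN7 and was at least 61.0-fold lower in MN. Prupe.8G032400.v2.1 went the other way, chosen likewise, with 6.79 ± 0.990 CPM in MN (SD, n = 5) and 1.66 ± 0.597 in TN7 (SD, n = 4). Both lay among the 16 called, and both had a higher mean in Sunraycer (34.3 and 76.8 CPM) than in TN11 (4.97 and 36.6 CPM). Values of these genes under the alternative fits were not kept, so whether their calls hold there is not shown.

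**Figure D3:**
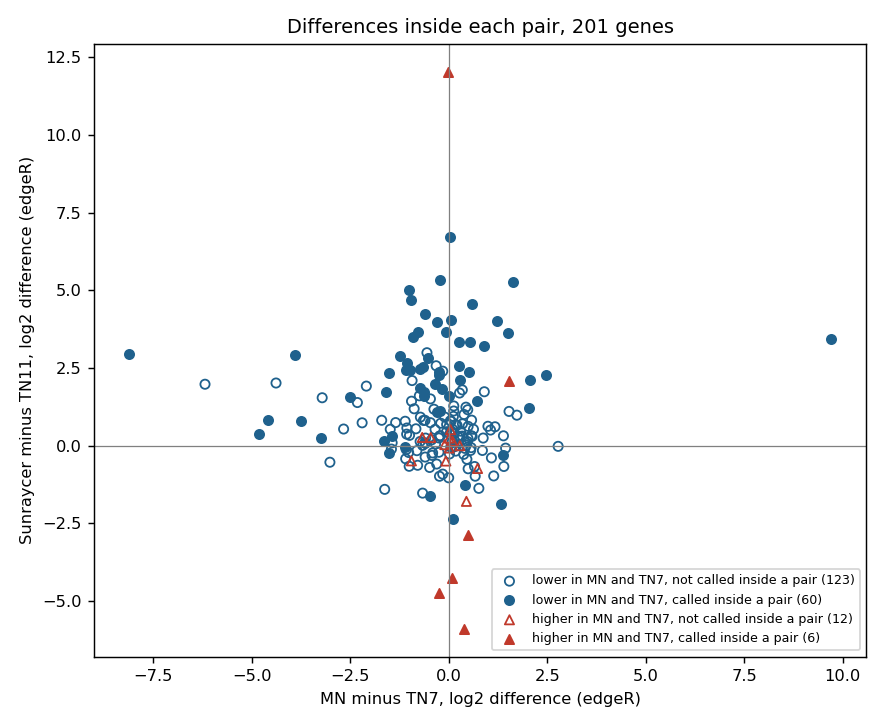
Log2 difference of MN minus TN7 (x axis) and of Sunraycer minus TN11 (y axis) from edgeR for the 201 members; filled symbols were called inside at least 1 pair. Of the lower members 60 and of the higher members 6 are filled, a share not computed over all tested genes. The filled lower members lie mostly above 0 on the y axis. Fitted values of genes with no count in 1 accession depend on the prior count.

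Some members stood next to each other on a chromosome, read from the digit and the order in their identifiers. Another member was the immediate neighbour for 21 of the 201 (10.4%), while 1.41% of the other genes had a member as immediate neighbour. With up to 10 other genes between, the shares were 24.4% and 14.3%. Members made up 1.11% of the genes on chromosome 3 and 0.478% on chromosome 7, beside 0.75% over all genes. A run was defined as at least 3 members with at most 10 other genes between neighbours, and 5 runs with 19 members were found. How reads were divided among close copies is not recorded, so levels of adjacent genes that are near-identical copies would be uncertain, and whether these are copies was not tested.

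The run on chromosome 8 held 4 of the 18 higher members within 7 consecutive genes. Prupe.8G026500.v2.1 had 2.21 to 3.90 CPM in MN, 2.14 to 3.55 in TN7, 0 to 0.218 in TN11 and no count in Sunraycer. Prupe.8G027000.v2.1 was similar at 2.43 ± 0.464 CPM in MN and 1.78 ± 0.0903 in TN7, with 1 count over Sunraycer and 6 over TN11. Prupe.8G026700.v2.1 had 5.29 and 3.79 CPM in MN and TN7, 0.477 in TN11 and 0.0561 in Sunraycer. Prupe.8G027100.v2.1 had 8.23 and 6.25 CPM in MN and TN7, 2.43 in TN11 and 3 counts over Sunraycer. Sunraycer was called below TN11 in 3 of these 4 members, at log2 −2.88 for Prupe.8G026700.v2.1, −5.90 for Prupe.8G027100.v2.1 and −4.25 for Prupe.8G026500.v2.1 (edgeR adjusted p = 4.46e-04, 1.52e-08 and 0.00594). The fitted value of the last, with no count in Sunraycer, depends on the prior count. The 3 genes between them that were not members were also higher in MN than elsewhere: Prupe.8G026600.v2.1 had 2.86 CPM in MN, 0.622 in TN7 and no count in the other accessions, and the MN and TN7 means of Prupe.8G026800.v2.1 were 27.4 and 1.87 CPM. Prupe.8G026900.v2.1 had 1.38 and 0.576 CPM in MN and TN7. The next gene, Prupe.8G027200.v2.1, was near-even at 8.66, 8.23, 7.53 and 7.18 CPM in MN, TN7, Sunraycer and TN11.

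The run on chromosome 2 mixed both directions within 14 genes. Prupe.2G022600.v2.1 and Prupe.2G023600.v2.1 were lower and Prupe.2G023900.v2.1 higher in MN and TN7, each without overlap between the pairs. Prupe.2G023600.v2.1 had 13.7 to 19.05 CPM in MN, 8.02 to 12.5 in TN7, 125 to 212 in Sunraycer and 44.9 to 83.1 in TN11. Prupe.2G023200.v2.1 was lower as well, but TN7 5 (28.7 CPM) exceeded 3 of the TN11 libraries. Just before the last member, Prupe.2G023800.v2.1 missed the rule, with 15.8 CPM in MN, 6.26 in TN7, 2.53 in Sunraycer and 1.40 in TN11. The run held 9 genes that were not members and had at least 1 CPM in some accession. Apart from Prupe.2G023800.v2.1, these differed by less than 2-fold between the pair means, which makes 8 genes. Some of these 8 still differed inside the pairs, as did Prupe.2G023700.v2.1 with 64.1 CPM in MN, 26.4 in TN7, 45.4 in Sunraycer and 15.7 in TN11.

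**Figure D4:**
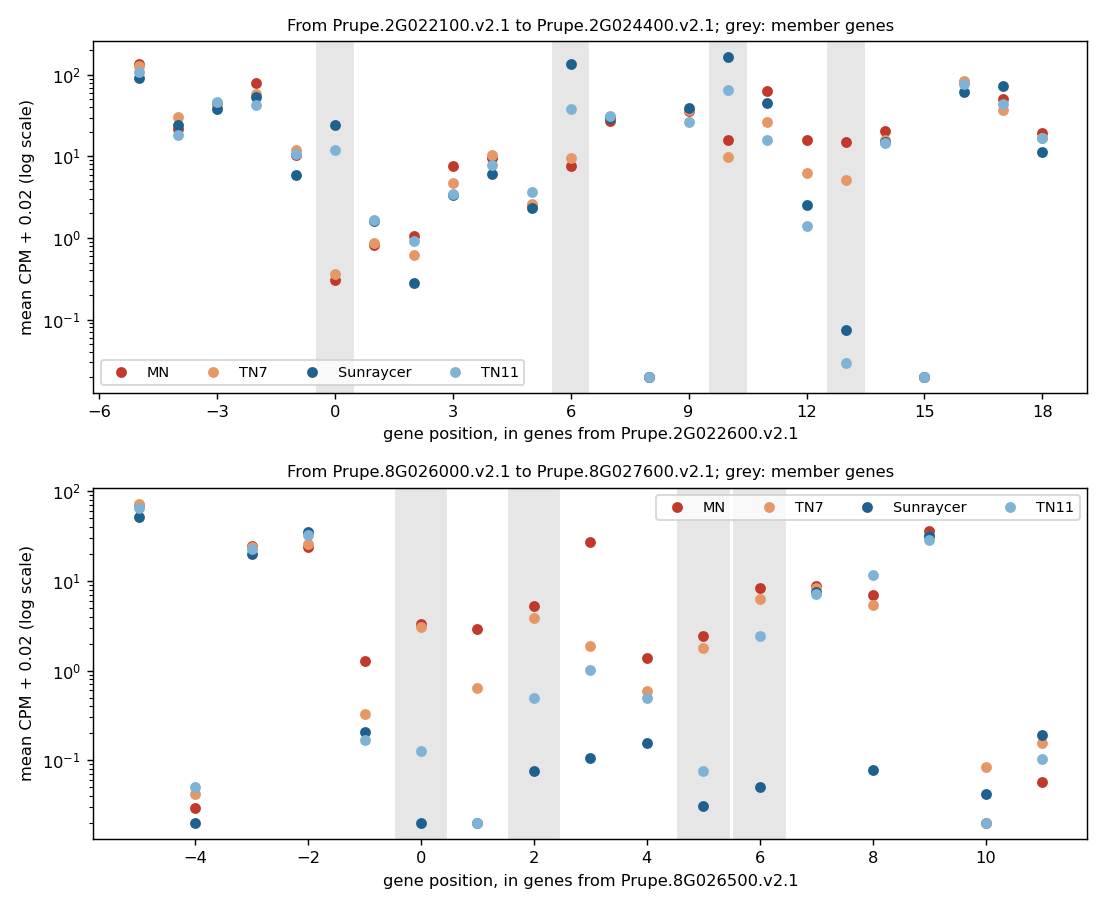
Mean CPM per accession (0.02 added, log axis) for consecutive genes around the runs on chromosome 2 (top) and chromosome 8 (bottom), in genes from the start of the run, with members in grey. Members at the chromosome 2 run lie among genes of which 8 differ by less than 2-fold between the pair means, and from Prupe.8G026500.v2.1 to Prupe.8G027100.v2.1 MN is highest at every gene.

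The other runs held lower members alone. On chromosome 6, 5 of 6 consecutive genes were members: Prupe.6G185100.v2.1, Prupe.6G185200.v2.1, Prupe.6G185300.v2.1, Prupe.6G185400.v2.1 and Prupe.6G185600.v2.1. All were weak, with means of 0.216 to 0.583 CPM in MN, 0.263 to 0.515 in TN7, 1.43 to 4.64 in Sunraycer and 1.88 to 5.76 in TN11. Sunraycer 10 was the highest Sunraycer library for all 5, and TN11 1 the lowest TN11 library for all 5. On chromosome 3, Prupe.3G143900.v2.1, Prupe.3G144000.v2.1 and Prupe.3G144100.v2.1 were adjacent and shared their highest libraries in the lower pair, MN 5 in MN and TN7 5 in TN7, and the lowest TN11 library, TN11 4. On chromosome 4 the members Prupe.4G028100.v2.1, Prupe.4G028800.v2.1 and Prupe.4G029900.v2.1 lay within 19 genes, and Prupe.4G028100.v2.1 was called inside both pairs (log2 2.46 for MN minus TN7, edgeR adjusted p = 0.0335 and 0.0833 with the replicate block; log2 2.27 for Sunraycer minus TN11, edgeR adjusted p = 0.0043). The call between MN and TN7 was also lost without MN 4, which had 5.29 CPM (log2 1.52, edgeR adjusted p = 0.119), and without any 1 of the 4 TN7 libraries (adjusted p = 0.0527 to 0.0788).

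The lower members also moved with the libraries. Their median level, as percent of the mean of the 4 accession means, was 5.99 in MN 3 and 33.3 in MN 4, 11.8 in TN7 3 and 44.2 in TN7 5, 70.4 in TN11 1 and 160.9 in TN11 3, and 114.9 in Sunraycer 3 and 229.3 in Sunraycer 1. The highest library was a larger multiple of the lowest in MN and TN7 than in Sunraycer and TN11, and no MN or TN7 library reached the median level of any Sunraycer or TN11 library. Deviations of 168 of the 183 lower members correlated positively with the axis score of the library within accessions (median r = 0.512 over 19 libraries), as did those of 49.3% of tested genes that are not members (median −0.0196). The points share their libraries and depth, and this is a description. TN7 5, with the highest axis score in TN7, was the highest TN7 library for 125 lower members. The part of the axis in the difference between the pairs was not tested.

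The 18 higher members did not move in that way. Their median level was 157.8 to 184.6 percent in MN libraries, 132.7 to 183.4 in TN7 libraries, and at most 24.5 in TN11 and 7.001 in Sunraycer libraries. Deviations of 10 of the 18 correlated positively with the axis (median r = 0.0712). The within-accession coefficient of variation had a median of 17.5% in MN and 21.6% in TN7 for the higher members, and of 48.7% in Sunraycer and 49.7% in TN11 for the lower members, in each case in the accessions where the genes were expressed. These medians come from different accessions, and none was computed over all genes. A difference between the sets therefore cannot be told from a difference between the accessions.

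**Figure D5:**
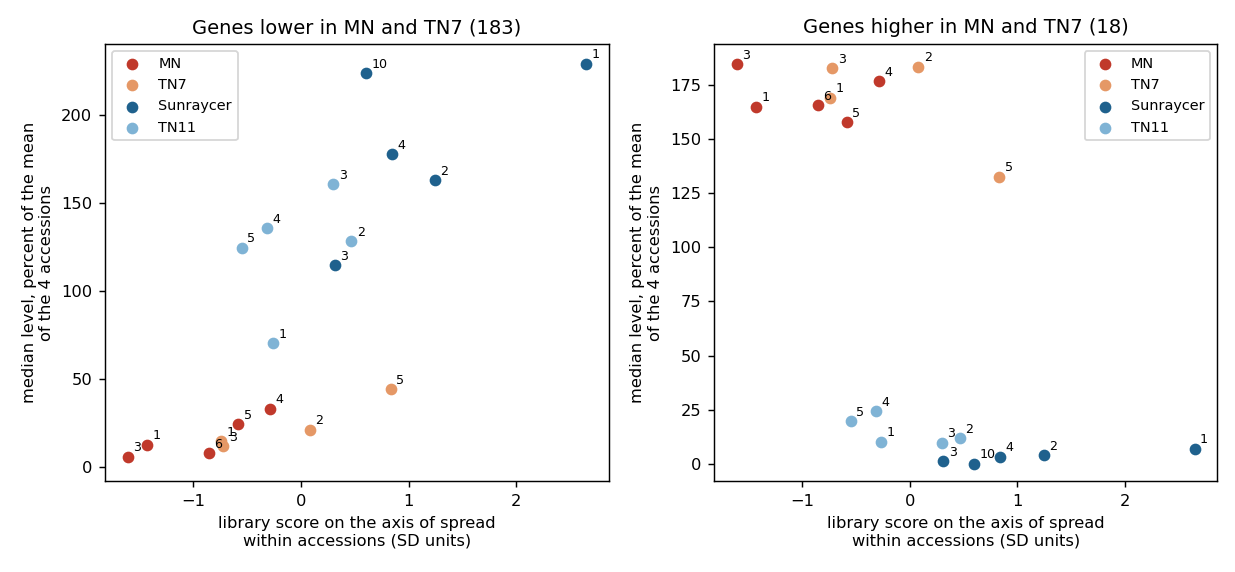
Median level of the 183 lower (left) and 18 higher (right) members per library, as percent of the mean of the 4 accession means, against the library's score on the axis of spread within accessions; numbers are replicates. On the left levels rise with the score inside MN and TN7 but stay below all Sunraycer and TN11 libraries, and on the right TN7 5 is the lowest of the MN and TN7 libraries at 132.7 percent.

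Membership of the lower genes depended on TN7 5. Without it 323 genes met the rule as lower, among them 182 of the 183, so 141 genes were added. The higher set changed to 22 genes and kept all 18. Overlap between the pairs had the same libraries at its edges: among the 122 overlapping lower members, TN7 5 was the highest MN or TN7 library in 54 and MN 4 in 42, and the lowest Sunraycer or TN11 library was TN11 1 in 39, TN11 4 in 27 and TN11 5 in 26.

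The difference between the pairs was also set beside the replicate error of the fit. All 4 comparisons of an accession of one pair with an accession of the other were called in the same direction for 17 of the 18 higher members and 95 of the 183 lower members. Over all tested genes that was so for 0.196% in the higher and 0.811% in the lower direction, but the rule chose the members on this contrast, and nothing is read from it. After the axis score was added to the model, the counts were 10 and 43. The share over all tested genes was not computed for that model.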

How the data were processed

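Estimated counts per gene were deposited by the authors as one table of 19 libraries, all whole numbers and not normalized. Per the submitters' processing notes, which assign no roles, the tools were R 4.1.1, Bowtie2 2.5.1, RSEM 1.2.31 and DESeq2. Genome build, strand setting and filtering of reads: not given in the sources used here, so reads of overlapping, antisense or near-identical genes could not be told apart. Per the labels' protocols, the RNeasy Plant Mini Kit and the TruSeq Stranded mRNA kit were used. Columns were matched to sample titles (0 unmatched). Replicate 4 of TN7 was not analysed here. No 2 libraries of an accession differed by sampling noise alone (lowest chi-square per degree of freedom 7.13).

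Counts were rounded to whole numbers, which changed none (0 were not whole), scaled with TMM, filtered with filterByExpr and fitted with edgeR 4.0.16 (glmQLFit, glmQLFTest; R 4.3.3), with one mean per accession and p-values adjusted over all 19360 tested genes. The standard error is the log2 difference divided by the square root of F. Alternatives used DESeq2 1.42.0 and limma 3.58.1, tables used SciPy 1.17.1 under Python 3.11.15, and the fit was tested on simulated data. Printed CPM values use library totals without TMM. MN and TN7 libraries that share a number deviated in common from their accession means (r = 0.568, 0.456 and 0.417 for numbers 1, 3 and 5). For that reason the blocked values are given where they end a call between MN and TN7 of a gene taken by the naming rule. The block also ended the Sunraycer minus TN11 calls of Prupe.1G205600.v2.1 and Prupe.2G023200.v2.1 (edgeR adjusted p = 0.0622 and 0.135). No blocked value was kept for genes named outside that rule. Between other accessions, libraries of the same number correlated in both directions. These r ran from −0.677 (TN7 and TN11, number 5) to 0.612 (TN7 and Sunraycer, number 3). The block was fitted over all 4 accessions, so it assumes a pairing that these values do not establish. No label states a pairing.

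Named genes were the 8 largest ratios and the 5 highest levels in each direction, members of runs, and genes next to the threshold. Gene classes, tissue markers and promoter motifs that had been planned needed product names or sequences and were not computed. Members and lists were chosen with earlier results of these data known.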

Additional observations from a re-analysis of the deposited data

Results flagged for a closer look

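In groups of 4 or 5 libraries, a library was marked when its gap to the nearest other exceeded Dixon's 95% limit relative to the range. Of 170 groups over the genes taken by the naming rule, 37 were marked. The limit marks about 1 in 20 only for independent, normally distributed values. Here a group with counts in a single library is marked by construction, and neighbouring genes often mark the same library. No excess over chance is therefore read from the count of 37.

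TN7 5 was marked 9 times, each time as the highest TN7 library. Its values were 51.8 CPM for Prupe.3G143900.v2.1, 8.72 for Prupe.3G144000.v2.1, 94.6 for Prupe.3G144100.v2.1, 151 for Prupe.6G141100.v2.1, 28.7 for Prupe.2G023200.v2.1, 0.802 for Prupe.3G307800.v2.1, 0.535 for Prupe.4G261900.v2.1, 0.749 for Prupe.6G185200.v2.1 and 17.9 for Prupe.8G148600.v2.1. Sunraycer 10 was marked 6 times as the highest Sunraycer library, 5 of them in the run on chromosome 6. Its values were 7.62 CPM for Prupe.6G185100.v2.1, 10.4 for Prupe.6G185200.v2.1, 11.4 for Prupe.6G185300.v2.1, 3.28 for Prupe.6G185400.v2.1, 2.80 for Prupe.6G185600.v2.1 and 56.5 for Prupe.4G261900.v2.1. MN 5 was the highest MN library at 12.1 CPM for Prupe.3G143900.v2.1, 33.0 for Prupe.3G144000.v2.1, 78.0 for Prupe.3G144100.v2.1, 22.0 for Prupe.1G205600.v2.1 and 0.0414 for Prupe.7G044600.v2.1.

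Other high libraries were MN 3 at 13.3 CPM and TN7 3 at 8.76 for Prupe.3G013600.v2.1, MN 4 at 5.29 for Prupe.4G028100.v2.1 and 8.79 for Prupe.8G148600.v2.1, and Sunraycer 4 at 2321 for Prupe.1G205600.v2.1. Sunraycer 1 had 0.217 CPM for Prupe.2G023900.v2.1, 0.922 for Prupe.3G050500.v2.1 and 0.0543 for Prupe.8G027000.v2.1. Sunraycer 2 had 0.0409 CPM for Prupe.1G204000.v2.1 and Sunraycer 3 had 1.54 for Prupe.3G219900.v2.1. TN7 2 had 0.0493 CPM for Prupe.3G021400.v2.1 and 7.73 for Prupe.8G027100.v2.1. TN11 2 had 20.1 CPM for Prupe.4G261900.v2.1 and 3.38 for Prupe.8G027100.v2.1, TN11 3 had 0.0469 for Prupe.2G023900.v2.1, and TN11 5 had 0.189 for Prupe.8G027000.v2.1. A low library was TN11 3 at 0.469 CPM for Prupe.4G267600.v2.1. Several of the lowest values rest on a few counts.

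The difference of nectarine minus peach was compared between the pairs in the edgeR fit, as MN minus TN7 less Sunraycer minus TN11, and was called in 9 of 39 named members. Over all 201 members it was called in 41 (20.4%) and over all tested genes in 21.7%, so the share of members was near the background. The log2 values were −12.1 for Prupe.2G107700.v2.1, −4.84 for Prupe.4G029900.v2.1, −1.80 for Prupe.4G267600.v2.1 and −1.35 for Prupe.2G022600.v2.1. They were 6.29 for Prupe.8G027100.v2.1, 4.48 for Prupe.3G050500.v2.1, 4.33 for Prupe.8G026500.v2.1, 3.37 for Prupe.8G026700.v2.1 and 1.68 for Prupe.4G284000.v2.1. Fitted values of genes with few counts in an accession depend on the prior count.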

How the results depend on the processing

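The count of 201 members (18 higher, 183 lower) followed the limit chosen: a ratio of at least 2 gave 318 (36 and 282) and of at least 4 gave 80 (11 and 69). Without 1 library it ran from 166 to 345 (15 to 22 higher, 149 to 323 lower), the extreme being without TN7 5, and without Sunraycer 1 and TN7 5 together it was 326, with 308 lower. The 16 members called between MN and TN7 became 25 with DESeq2, 10 with limma-voom, 9 with the replicate block and 9 without Sunraycer 1 and TN7 5 together, and 9 to 21 without 1 library, the low end being without TN7 5. The 56 called between Sunraycer and TN11 ran from 41 to 69 over all alternatives (45 with the replicate block), and from 43 to 61 without 1 library. Members called in all 4 comparisons across the pairs numbered 112, 53 with the axis score as a covariate, 98 with the replicate block, and 78 to 140 without 1 library. The cause of these shifts was not tested. Shares over all tested genes were not computed under the alternatives. A shift in calls among members therefore cannot be told from a shift over all genes. Of the 18 calls of named members inside a pair, 486 values under alternatives gave 450 calls kept, 36 lost and 0 reversed. This total includes a setting that could lose no call, the adjusted p limit alone. Leaving out a library outside the comparison barely moved the fitted difference but could still end a call. For Prupe.2G023200.v2.1, Sunraycer minus TN11, the call was kept in 10 of 19 fits without 1 library. It was lost, among others, without MN 5, MN 6 and TN7 2, which lie outside the comparison (edgeR adjusted p = 0.0559, 0.0552 and 0.052). At these depths 3 counts over an accession are the limit for a gene with no count.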
